A study of Homo sapiens with 6 samples.

Results

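Genes that charge tRNAs and supply amino acids were examined in HepG2 cells as a module of 39 members: 19 cytosolic aminoacyl-tRNA synthetases, 6 enzymes of serine, glycine and folate metabolism, 7 enzymes of asparagine, proline, alanine and sulfur amino acids, 6 amino acid transporters, and the lipoprotein receptor VLDLR. Members were chosen by gene symbol, and each symbol was matched to an Ensembl identifier. All 39 were found among the 20422 genes of the count table, and all 39 were among the 12386 genes with enough counts for a test. Aminoacyl-tRNA synthetases join each amino acid to its tRNA before protein synthesis, while the enzymes and transporters make or import the amino acids themselves. Many of these genes are known targets of ATF4, a transcription factor that is translated when a kinase such as GCN2 phosphorylates eIF2 during amino acid shortage. In liver cells the same set also serves the production of secreted plasma proteins.

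HepG2, a human hepatocellular carcinoma line in wide use, served as the host cell. RNA-Seq covered 3 samples of cells given the empty vector (NC) and 3 samples of cells overexpressing APPLE, a microprotein encoded by the lncRNA ASH1L-AS1, with a Flag tag (ORF-Flag). The submitters' description of the design gives plasmid transfection, whereas the methods of the study describe stable lines made with lentiviral vectors, so the delivery of the construct is given in both forms. None of these sources says whether replicates of a group came from different cultures, so the p-values measure only the spread between these samples, which may be technical. The NC libraries held 20081203, 24907524 and 30088457 counts and the ORF-Flag libraries 26866148, 17494668 and 27015836, in the order of replicates 1, 2 and 3 that is kept throughout. At these depths 3 counts, the upper limit that a count of 0 allows, correspond to between 0.0997 and 0.171 CPM, which covers counting error only. Levels are in CPM, the count of a gene relative to the TMM-normalized size of its library, and a difference is a log2 fold change of ORF-Flag over NC.

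The cells carried the hepatocyte genes of their label. The 8 hepatocyte markers (ALB, AFP, APOA1, APOB, TTR, SERPINA1, TF and FGB) summed to 25376, 26006 and 26462 CPM in NC and 26443, 26085 and 26083 CPM in ORF-Flag, so the ranges of the groups overlapped. FGB, a fibrinogen chain, was the 1 marker that rose (log2 fold change 0.14, adjusted p = 0.0232 in edgeR's quasi-likelihood test with Benjamini-Hochberg adjustment). That is 1 of 8 markers (12.5%) called higher, beside 2.47% of all tested genes. At an unadjusted p below 0.05 in that test, 4 of 8 passed, beside 18.5% of all tested genes. ALB (0.08), SERPINA1 (0.09) and APOB (-0.07) reached this level but did not pass after adjustment. For 3 markers each ORF-Flag library lay above each NC library, which is 37.5% beside 11.5% of all tested genes. Of 8 markers of other cell types, the leukocyte genes PTPRC and CD3E had 0 counts in each library. The collagens COL1A1 and COL3A1, the keratin KRT5 and the muscle gene DES stayed under 0.5 CPM in each library. CD68, a lysosomal gene also expressed outside macrophages, was the most abundant of them. It shares 93.7% of its 31-base stretches of sequence with another annotated gene that was not analysed here, so its level is uncertain. PECAM1, an endothelial and leukocyte gene, stood at 4.45, 3.84 and 4.78 CPM in NC and 6.03, 5.29 and 5.78 CPM in ORF-Flag. Its groups did not overlap, and its log2 fold change of 0.39 did not pass, with an adjusted p of 0.0958 (edgeR's quasi-likelihood test, Benjamini-Hochberg). Any part of this gene in the other results was not tested. The 8 markers together summed to 47.6, 41.5 and 43.2 CPM in NC and 44.3, 42.7 and 46.3 CPM in ORF-Flag.

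Most members differed little between the groups, and most of the small differences pointed down in ORF-Flag. Of the 39 members, SLC38A2 rose and 4 (QARS1, VARS1, PYCR1 and CBS) fell in edgeR's quasi-likelihood test, with Benjamini-Hochberg adjustment over all tested genes and a threshold of 0.05. That is 2.56% higher and 10.3% lower, beside 2.47% higher and 1.98% lower among all 12386 tested genes, of which 4.45% passed in either direction. In that test 13 of 39 members reached an unadjusted p below 0.05, beside 18.5% of all tested genes. DESeq2 called 4 members, and limma-trend and limma-voom called 5 each. The point estimate was below 0 for 34 of 39 members (87.2%), compared with 50.5% of all tested genes, and for between 30 and 35 members under 16 alternatives (other tools, scalings, filters and call rules, and single libraries left out). The median log2 fold change was -0.05 over the members and -0.0012 over all tested genes. The median absolute log2 fold change was 0.05 over the members and 0.07 over all tested genes, with median standard errors of 0.04 and 0.07. In bulk RNA, fewer cells that express a gene and less of its RNA per cell cannot be told apart.

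The lean could be seen in each library. Summed over the 39 members, the level was 6977, 7046 and 6974 CPM in NC and 6846, 6874 and 6741 CPM in ORF-Flag. Each ORF-Flag library thus lay below each NC library, with group means of 6999 ± 40.8 CPM and 6820.4 ± 69.9 CPM (each SD, n = 3), a difference of -2.55%. ORF-Flag replicate 3 was the lowest library and NC replicate 2 the highest. Taken gene by gene, 13 members (33.3%) had their 3 ORF-Flag libraries all below their 3 NC libraries, and 1 member (2.56%) had them all above, while the shares over all tested genes were 10.9% below and 11.5% above. By the other rule of a fold change above 1.2 with an unadjusted p below 0.05, which 4.54% of all tested genes met, CBS was the 1 member to pass.

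**Figure D1:**
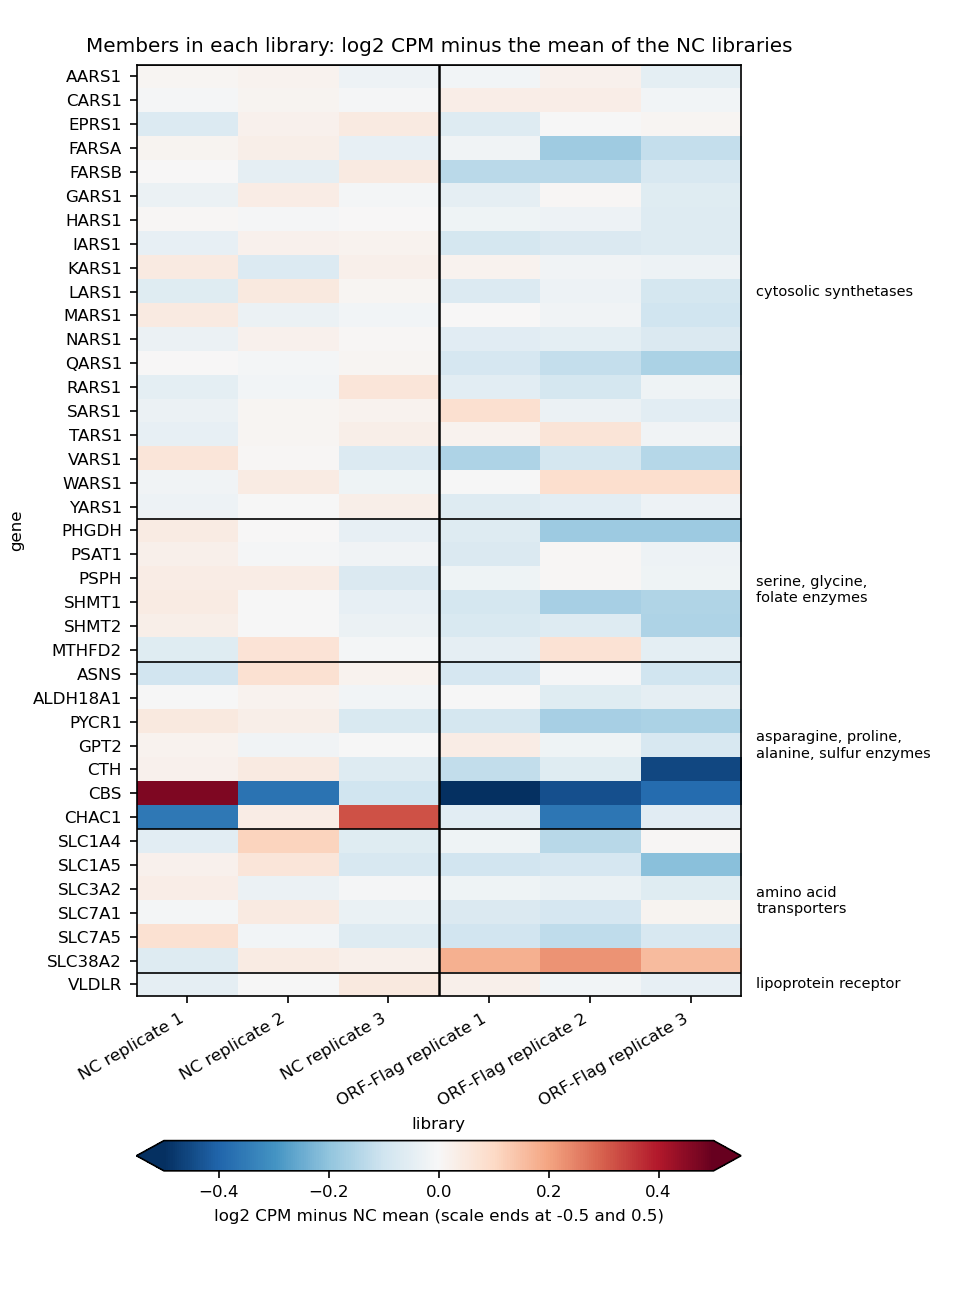
Log2 CPM of each of the 39 members in each of the 6 libraries, shown as the difference from the gene's mean in NC, with genes grouped by role and colours from -0.5 to 0.5. Most members are slightly lower in the 3 ORF-Flag columns, while SLC38A2 is higher in all 3.

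The 19 cytosolic synthetases held 2 of the 4 members that fell and none that rose. That is 10.5% lower and 0% higher, beside 1.98% lower and 2.47% higher among all tested genes. Their summed level differed by -3.08%, with 3948 ± 34.7 CPM in NC against 3827 ± 32.0 CPM in ORF-Flag (SD, n = 3). QARS1 (ENSG00000172053, chr3:49095932-49105135 on the minus strand of GRCh38), which charges tRNA with glutamine, stood at 267, 264 and 268 CPM in NC and 251, 245 and 239 CPM in ORF-Flag. The 3 NC libraries were close together, and each ORF-Flag library lay below them. QARS1 fell by 0.12 on the log2 scale (standard error 0.03, 95% confidence interval -0.19 to -0.05, adjusted p = 0.0374 in edgeR's quasi-likelihood test with Benjamini-Hochberg adjustment). VARS1 (ENSG00000204394, chr6:31777518-31795953, minus strand), the valine enzyme, stood at 225, 217 and 206 CPM in NC and 194, 203 and 195 CPM in ORF-Flag. Its groups did not overlap either, although NC replicate 3 came close to ORF-Flag replicate 2. VARS1 fell by 0.13 on the log2 scale (standard error 0.04, interval -0.21 to -0.05, adjusted p = 0.0447 in the same edgeR test with Benjamini-Hochberg adjustment).

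Both calls sat near the threshold and were lost in most fits of 5 libraries, in which the number of calls over all genes also fell, except without NC replicate 3. For QARS1, edgeR's quasi-likelihood test with Benjamini-Hochberg adjustment gave an adjusted p of 0.0988 without NC replicate 2 and of 0.0649, 0.125 and 0.234 without ORF-Flag replicates 1, 2 and 3, within a range of 0.0194 to 0.234 over all alternatives. For VARS1, the adjusted p of that test was 0.111 and 0.145 without NC replicates 1 and 2 and 0.186, 0.0664 and 0.19 without ORF-Flag replicates 1, 2 and 3, within a range of 0.00269 to 0.231. The log2 fold change with single libraries left out stayed between -0.14 and -0.10 for QARS1 and between -0.16 and -0.10 for VARS1, and it was negative for both genes under all 16 alternatives. Both calls were also lost in a fit described below, with the trend on GC content and exon length removed. There VARS1 was at -0.06 (adjusted p = 0.231) and QARS1 at -0.09 (adjusted p = 0.0502, both edgeR, Benjamini-Hochberg).

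The other 17 synthetases had log2 fold changes between -0.12 and 0.05. FARSB and FARSA encode the subunits of the phenylalanine enzyme, and both point estimates were negative, at -0.12 and -0.10. FARSB, IARS1 (isoleucine), HARS1 (histidine) and NARS1 (asparagine) had groups that did not overlap but did not pass the test, with FARSB nearest to it at an adjusted p of 0.0797 (edgeR, Benjamini-Hochberg). With QARS1 and VARS1, 6 of 19 synthetases (31.6%) had all ORF-Flag libraries below all NC libraries, beside 10.9% of all tested genes. With the replicate block FARSB passed as lower (adjusted p = 0.0414, edgeR, Benjamini-Hochberg), although the replicate numbers were not taken to pair the libraries. WARS1, the tryptophan enzyme and an interferon-responsive gene, had the highest estimate, 0.05, with overlapping groups. For SARS1, the serine enzyme, the estimate was 0.00 and turned negative when library sizes were used without TMM factors. AARS1, the alanine enzyme and a known target of ATF4, averaged 391 ± 6.16 CPM in NC against 387 ± 9.40 CPM in ORF-Flag (SD, n = 3), and its interval of -0.08 to 0.05 bounds the difference on the log2 scale.

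**Figure D2:**
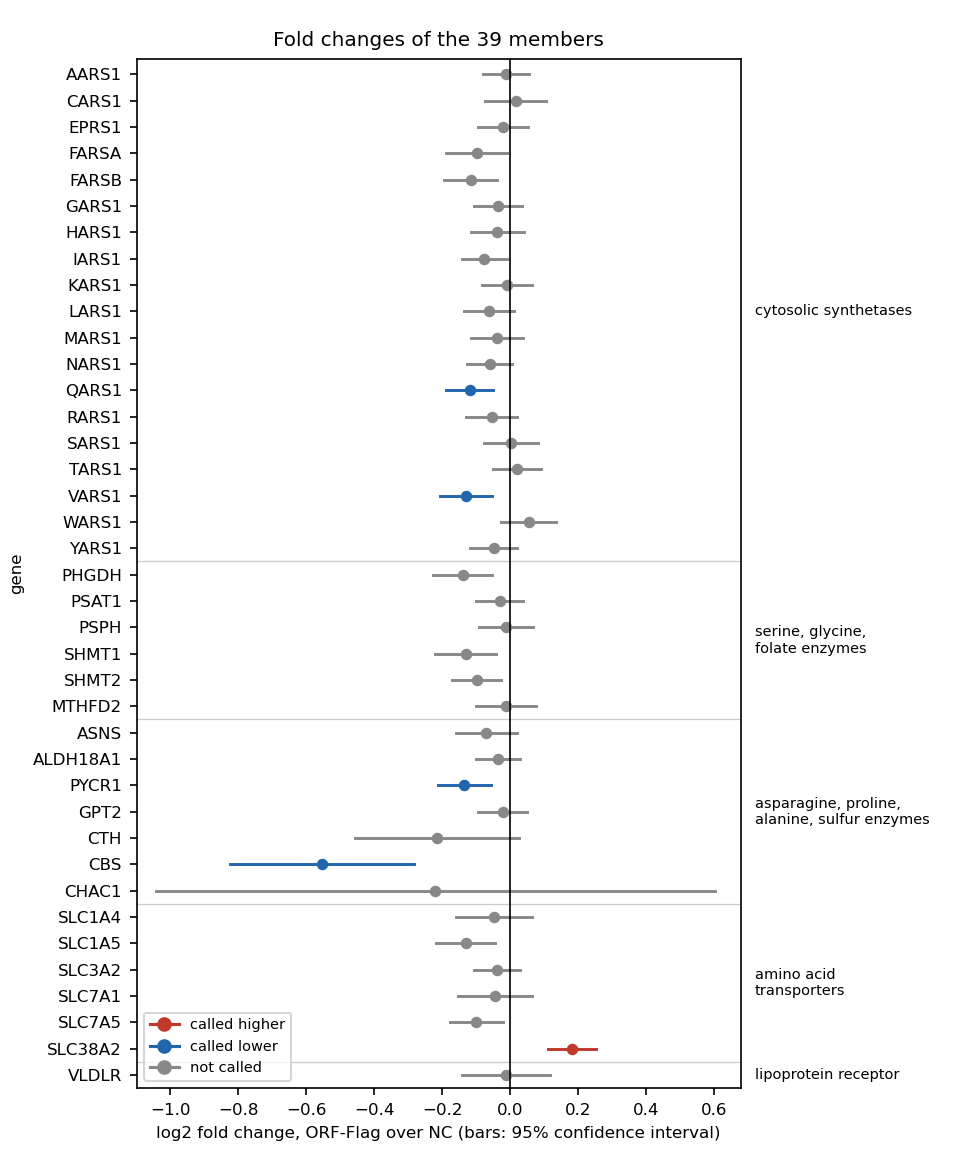
Log2 fold change of ORF-Flag over NC for each of the 39 members with its 95% confidence interval (n = 3 libraries per group), grouped by role. SLC38A2 lies to the right at 0.18, CBS lies farthest to the left at -0.55, and CHAC1 has the widest interval.

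The 6 enzymes that make serine and glycine and pass their carbon to folate all had negative estimates, and none passed edgeR's quasi-likelihood test, with 0 calls also in DESeq2, limma-trend and limma-voom. At an unadjusted p below 0.05, which 18.5% of all tested genes reached, 3 of 6 passed (PHGDH, SHMT1 and SHMT2), and these 3 also had groups that did not overlap. PHGDH, which catalyses the entry step of serine synthesis from a glycolytic intermediate, stood at 99.6, 97.0 and 94.0 CPM in NC and 92.5, 85.5 and 85.3 CPM in ORF-Flag. ORF-Flag replicate 1 came closest to the NC range. The log2 fold change of PHGDH was -0.14 (standard error 0.04, interval -0.23 to -0.05), with an adjusted p of 0.0579 in edgeR's quasi-likelihood test with Benjamini-Hochberg adjustment. In that edgeR test (Benjamini-Hochberg) PHGDH passed with an adjusted p of 0.0159 without NC replicate 3, 0.0456 without ORF-Flag replicate 1, 0.0233 without a filter on low counts and 0.0241 with the replicate block, within a range of 0.0159 to 0.273 over the alternatives. The fit without a filter gave every gene the spread of the general trend in place of its own. The replicate block pairs libraries by number, although the numbers were not taken to pair them. Without NC replicate 3, SHMT1 and SHMT2 passed as well. The hydroxymethyltransferases SHMT1 in the cytosol and SHMT2 in mitochondria, which convert serine to glycine, had estimates of -0.13 and -0.10. PSAT1, PSPH and the mitochondrial folate enzyme MTHFD2 had estimates between -0.03 and -0.01 with overlapping groups. The summed level of the 6 genes was 900, 893 and 868 CPM in NC and 848, 863 and 833 CPM in ORF-Flag, a difference of -4.35%.

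Among the enzymes of asparagine, proline, alanine and sulfur amino acids, PYCR1 and CBS fell, and the other 5 did not pass the test. That is 28.6% lower, beside 1.98% of all tested genes. DESeq2 called 1 of the 7, and limma-trend and limma-voom called 2 each. PYCR1 (ENSG00000183010, chr17:81932384-81942412, minus strand), which carries out the last step of proline synthesis in mitochondria, stood at 228, 225 and 209 CPM in NC and 208, 197 and 198 CPM in ORF-Flag. The groups were separated by a narrow gap between NC replicate 3 and ORF-Flag replicate 1. PYCR1 fell by 0.13 on the log2 scale (standard error 0.04, interval -0.21 to -0.06, adjusted p = 0.0383 in edgeR's quasi-likelihood test with Benjamini-Hochberg adjustment). An antisense gene overlaps 450 bases of its exons, and since the strand setting of the counting is not given in the sources used here, reads of the pair may be mixed. Its adjusted p in the same edgeR test with Benjamini-Hochberg adjustment was 0.0838 and 0.163 without NC replicates 1 and 2 and 0.0522, 0.161 and 0.189 without ORF-Flag replicates 1, 2 and 3, within a range of 0.00143 to 0.189 over the alternatives. Its log2 fold change in these fits stayed between -0.17 and -0.11. Over all alternatives it lay between -0.17 and -0.09, and the call was also lost with the trend on GC content and exon length removed. ALDH18A1, which opens the same pathway, averaged 435 ± 4.53 CPM in NC against 425 ± 8.72 CPM in ORF-Flag (SD, n = 3), with an interval of -0.10 to 0.03 for its log2 fold change.

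CBS (ENSG00000160200, chr21:43053191-43076943, minus strand) condenses homocysteine with serine on the way to cysteine, and had the lowest log2 fold change of the 39 members. Its level was 38.8, 21.7 and 26.2 CPM in NC and 16.5, 20.7 and 21.4 CPM in ORF-Flag. NC replicate 1 stood well above the other libraries, and NC replicate 2 and ORF-Flag replicate 3 nearly met. CBS fell by 0.55 on the log2 scale (standard error 0.13, adjusted p = 0.0153 in edgeR's quasi-likelihood test with Benjamini-Hochberg adjustment). Without NC replicate 1 the log2 fold change was -0.31 (adjusted p = 0.0431 in the same edgeR test, Benjamini-Hochberg), and without ORF-Flag replicate 1 it was -0.44 (adjusted p = 0.103). DESeq2 gave an adjusted p of 0.307 (Benjamini-Hochberg), the highest among the alternatives, whose lowest was 6.32e-13 in edgeR without a filter on low counts, a fit that gave every gene the spread of the general trend in place of its own. CBS also shares 95.3% of its 31-base stretches with another annotated gene that was not analysed here, so reads could have been divided or dropped in the counting and its level is uncertain. CTH, which completes the step to cysteine, stood at 7.91, 8.05 and 7.45 CPM in NC and 7.15, 7.47 and 5.67 CPM in ORF-Flag, with ORF-Flag replicate 3 low, and did not pass the test.

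ASNS (ENSG00000070669, chr7:97852118-97872542, minus strand), which makes asparagine and is among the best known targets of ATF4, stood at 92.2, 104 and 99.7 CPM in NC and 93.0, 98.0 and 91.9 CPM in ORF-Flag. The groups overlapped, with NC replicate 1 inside the ORF-Flag range. Its log2 fold change was -0.07, and between -0.11 without NC replicate 1 and -0.03 without NC replicate 2 (all 6 libraries: standard error 0.04, interval -0.16 to 0.02, adjusted p = 0.428 in edgeR's quasi-likelihood test with Benjamini-Hochberg adjustment). An overlapping annotated transcript on the same strand shares 83% of the 31-base stretches of ASNS and was not analysed here, so this level is uncertain as well. CHAC1, a glutathione-degrading enzyme that rises strongly under ATF4 activation in many cells, had 7, 12 and 18 counts in NC and 12, 6 and 12 counts in ORF-Flag. With so few counts its log2 fold change of -0.22 had an interval of -1.04 to 0.60, and differences within it were not detectable at this depth. GPT2, the mitochondrial alanine aminotransferase, had an estimate of -0.02 with overlapping groups.

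**Figure D3:**
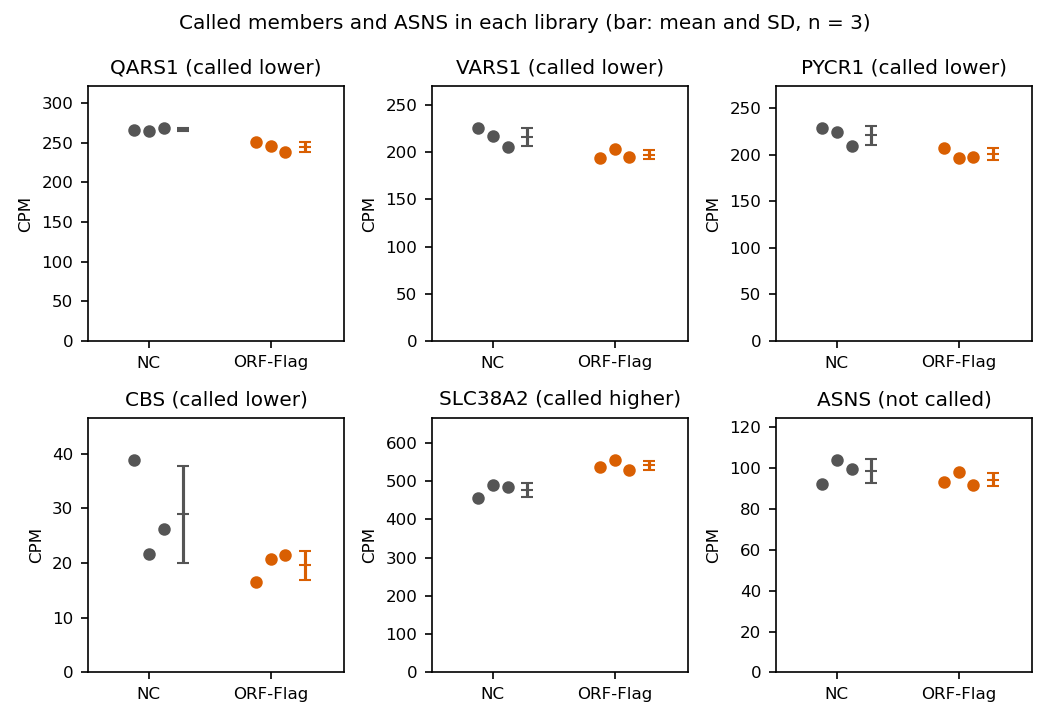
TMM-normalized CPM in each library for the 5 members that passed the test and for ASNS, with the mean and SD of each group (n = 3). The points of SLC38A2 in ORF-Flag lie above all NC points, those of QARS1, VARS1, PYCR1 and CBS lie below, and those of ASNS overlap.

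SLC38A2 was the 1 member that rose. It encodes SNAT2, a sodium-coupled carrier of small neutral amino acids such as alanine, serine and glutamine, and is known to be induced when amino acids run short. SLC38A2 (ENSG00000134294, chr12:46358189-46372867, minus strand) stood at 455, 489 and 485 CPM in NC and 538, 555 and 530.4 CPM in ORF-Flag. Each ORF-Flag library lay above each NC library, and NC replicate 1 was the lowest of the 6. The group means were 476 ± 18.6 CPM and 541 ± 12.9 CPM (each SD, n = 3), and the log2 fold change was 0.18 (interval 0.11 to 0.25, standard error 0.03, adjusted p = 0.00219 in edgeR's quasi-likelihood test with Benjamini-Hochberg adjustment), or 13.6%. The call held without each library in turn, with adjusted p between 0.000237 and 0.0252 in that edgeR test with Benjamini-Hochberg adjustment. At 13.6% the change did not reach the 1.2-fold size of the other call rule.

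The other 5 transporters had negative estimates. SLC1A5, a glutamine carrier, stood at 144, 148 and 134 CPM in NC and 133, 134 and 123 CPM in ORF-Flag, with an adjusted p of 0.076 (edgeR's quasi-likelihood test, Benjamini-Hochberg). It passed as lower without a filter and with the replicate block, under the limits given for PHGDH, and without NC replicate 3. These were 3 of 16 alternatives, with adjusted p from 0.00456 to 0.401 over all 16 (edgeR, DESeq2 or limma, Benjamini-Hochberg). A gene on the opposite strand overlaps 780 of its exon bases, as others do for 271 bases of SLC7A5, 427 of SHMT2 and 196 of SHMT1, so these levels are uncertain. The same holds for MTHFD2 (1324 bases), VLDLR (738), MARS1 (519), HARS1 (437), YARS1 (396) and WARS1 (385), with shorter overlaps in some other members. SLC7A5, the light chain of the leucine exchanger LAT1, had an estimate of -0.10, and its groups did not overlap, as was also the case for SLC1A5. These 2 are 33.3% of the 6 transporters, beside 10.9% of all tested genes with all ORF-Flag libraries below all NC libraries. The estimate of SLC7A5 lay between -0.13 and -0.06 with single libraries left out, and between -0.13 and -0.04 over all 16 alternatives. SLC7A5 passed as lower in 1 of them, without NC replicate 3 (adjusted p = 0.0234, edgeR, Benjamini-Hochberg). SLC3A2, the heavy chain that brings LAT1 to the plasma membrane, had an estimate of -0.04 with overlapping groups, and so did the arginine and lysine carrier SLC7A1. SLC1A4, a carrier of alanine, serine and cysteine, had an estimate of -0.05. Because SLC38A2 is abundant, the summed level of the 6 transporters was 2.72% higher in ORF-Flag, at 1135, 1158 and 1131 CPM in NC and 1175, 1185 and 1156 CPM in ORF-Flag, and the groups overlapped. VLDLR, which binds lipoproteins and is an ATF4 target under stress, stood at 24.0, 24.7 and 25.6 CPM in NC and 25.2, 24.5 and 24.1 CPM in ORF-Flag. The libraries of the groups were interleaved, and the log2 fold change was -0.01 (interval -0.14 to 0.12, adjusted p = 0.943 in edgeR's quasi-likelihood test with Benjamini-Hochberg adjustment).

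Per length, the members covered a wide range of levels. PSAT1, the aminotransferase of serine synthesis, was the most abundant of the 39 at 119.8 CPM per kilobase of exon in NC and 117 in ORF-Flag, followed by ALDH18A1 at 116 and 113. The PSAT1 libraries were 266, 261 and 259 CPM in NC and 249, 263 and 257 CPM in ORF-Flag, with overlapping groups, and 15.6% of its 31-base stretches also occur in other annotated genes. CHAC1 was the least abundant, at 0.231 CPM per kilobase in NC. The member that rose, SLC38A2, moved from 72.1 to 82.0 CPM per kilobase. These values divide by the length of all annotated exons, which is longer than the transcript in use for many genes.

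Promoter sequence was examined because ATF4 acts on many of these genes through a shared element. RefSeq promoter windows on GRCh38.p14, from 250 bases before to 50 bases after a transcription start, were matched for 32 of 39 members, with 45 windows in all. LARS1, VARS1, YARS1, PSPH, SHMT2, PYCR1 and GPT2 were not matched. Each window was searched on both strands for TGATGNAA, the core of the C/EBP-ATF response element. The core occurred in 13 of 32 members (40.6%), compared with 4.46% of 27305 genes, and in 13 of 45 member windows (28.9%), compared with 3.62% of 35116 windows. The ASNS window (chr7:97872359-97872658, minus strand) holds the element through which amino acid shortage is known to raise this gene. It is printed with the core in capitals, followed by the window of SLC38A2 (chr12:46372724-46373023, minus strand), the member that rose, and that of QARS1 (chr3:49104708-49105007, minus strand), a member that fell, both without the core.
ASNS: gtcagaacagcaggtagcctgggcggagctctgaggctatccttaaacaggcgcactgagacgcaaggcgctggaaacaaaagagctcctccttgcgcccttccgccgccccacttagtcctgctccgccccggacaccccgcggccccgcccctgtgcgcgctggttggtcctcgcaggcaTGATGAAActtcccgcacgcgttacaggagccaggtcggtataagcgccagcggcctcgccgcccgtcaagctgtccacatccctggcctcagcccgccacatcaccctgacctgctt
SLC38A2: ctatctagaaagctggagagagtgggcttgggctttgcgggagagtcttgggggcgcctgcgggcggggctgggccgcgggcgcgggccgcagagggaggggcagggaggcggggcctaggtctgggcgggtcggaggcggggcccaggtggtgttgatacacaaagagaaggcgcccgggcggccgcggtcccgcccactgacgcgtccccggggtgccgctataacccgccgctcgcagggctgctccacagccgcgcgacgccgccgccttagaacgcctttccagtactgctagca
QARS1: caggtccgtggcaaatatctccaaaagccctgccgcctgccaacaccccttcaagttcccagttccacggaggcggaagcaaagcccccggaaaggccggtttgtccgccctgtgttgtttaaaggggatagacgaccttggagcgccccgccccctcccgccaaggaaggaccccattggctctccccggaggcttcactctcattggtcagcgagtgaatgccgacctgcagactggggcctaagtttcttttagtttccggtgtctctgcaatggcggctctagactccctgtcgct

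In ASNS the core starts 68 bases before the transcription start. The 13 members carried the core in 3 forms: TGATGCAA in 9 members, TGATGAAA in 3 and TGATGTAA in 1. Stretches around the core are shown for members chosen after their values were seen to cover each form, read on the strand of the core, which is in capitals: IARS1 (chr9:92293693-92293720, plus strand), CHAC1 (chr15:40953252-40953279, minus strand), SLC1A5 (chr19:46784894-46784921, minus strand), SLC7A1 (chr13:29595664-29595691, minus strand) and SLC3A2 (chr11:62881726-62881748, minus strand).
IARS1: cgcacggaggTGATGCAAcgcgctgaaa
CHAC1: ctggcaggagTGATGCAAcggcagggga
SLC1A5: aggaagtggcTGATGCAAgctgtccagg
SLC7A1: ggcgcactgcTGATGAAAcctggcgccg
SLC3A2: ggagcTGATGTAAggagtcctgc

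Members with the core also differed little between the groups. Of these 13, 0 passed edgeR's quasi-likelihood test (2 at an unadjusted p below 0.05, a level reached by 18.5% of all tested genes, and 0 in DESeq2, limma-trend or limma-voom), 11 had a negative estimate, and the median log2 fold change was -0.04. Of the 19 members with a window but without the core, 1 rose and 2 fell (8 at an unadjusted p below 0.05), beside 2.47% higher and 1.98% lower among all tested genes, 16 had a negative estimate, and the median was also -0.04. The 5 windows of QARS1, CBS and SLC38A2 held no core, which says only that these letters are absent from those windows. For SLC38A2 the known amino acid response element lies in an intron, outside the window. CACGTG, the E-box bound by MYC and related factors, occurred in 4 of 32 members (12.5%; ALDH18A1, IARS1, SLC1A5 and SLC7A5), compared with 8.77% of all genes.

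Several genes on a list of ATF4 pathway regulators rose in ORF-Flag. The list holds eIF2 kinases as well as genes that are themselves induced by stress, so its name does not separate regulators from targets. Of 16 genes on the list of ATF4 regulators and eIF2 kinases, 6 rose and 0 fell in edgeR's quasi-likelihood test (7 at an unadjusted p below 0.05 in either direction), beside 2.47% higher, 1.98% lower and 18.5% at that unadjusted p among all tested genes. DESeq2, limma-trend and limma-voom each called 6. PPP1R15A, which encodes GADD34 and returns eIF2 to its unphosphorylated state, stood at 42.9, 42.5 and 45.2 CPM in NC and 63.9, 61.5 and 61.1 CPM in ORF-Flag. The groups were far apart relative to their spread, and PPP1R15A was higher by 0.51 on the log2 scale (standard error 0.05, adjusted p = 1.19e-07 in edgeR's quasi-likelihood test with Benjamini-Hochberg adjustment). ATF3, a stress-induced factor, stood at 4.75, 4.92 and 4.54 CPM in NC and 8.83, 8.27 and 9.82 CPM in ORF-Flag, and its log2 fold change was 0.93. NUPR1, a stress-induced chromatin protein, stood at 63.5, 67.7 and 65.1 CPM in NC and 85.7, 82.6 and 80.7 CPM in ORF-Flag, and its log2 fold change was 0.34. The libraries of neither gene overlapped between the groups, and the adjusted p was 1.61e-05 for ATF3 and 1.78e-05 for NUPR1 (edgeR, Benjamini-Hochberg). DDIT3, which encodes CHOP, stood at 17.6, 17.1 and 17.8 CPM in NC and 20.4, 24.2 and 22.9 CPM in ORF-Flag. SESN2, a leucine sensor upstream of mTORC1, stood at 24.3, 24.4 and 22.1 CPM in NC and 30.3, 29.5 and 28.9 CPM in ORF-Flag. DDIT3 rose by 0.36 and SESN2 by 0.33 on the log2 scale, with adjusted p of 0.00466 and 0.00273 (edgeR, Benjamini-Hochberg), and for both genes each ORF-Flag library lay above each NC library. DDIT3 overlaps 355 exon bases of the member MARS1 on the opposite strand, so some reads of the pair may be mixed.

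ATF4 itself stood at 401, 401 and 399.7 CPM in NC and 427, 418 and 400.1 CPM in ORF-Flag. ORF-Flag replicate 3 lay inside the NC range, and the log2 fold change of 0.05 (interval -0.02 to 0.12) did not pass, with an adjusted p of 0.438 in edgeR's quasi-likelihood test with Benjamini-Hochberg adjustment. ATF4 is controlled largely at translation, which RNA-Seq does not measure, and 37.5% of its 31-base stretches also occur in other annotated genes. TRIB3, a target that restrains ATF4, stood at 109, 97.4 and 86.5 CPM in NC and 103, 101 and 96.2 CPM in ORF-Flag. Its groups overlapped, and its log2 fold change of 0.04 turned to -0.04 without NC replicate 3. EIF2AK4, which encodes the amino acid sensing kinase GCN2 and is named after its values were seen, was the remaining gene of the list that rose. It stood at 149.6, 151 and 151 CPM in NC and 176, 175 and 178 CPM in ORF-Flag. The groups did not overlap, and the log2 fold change was 0.23 (standard error 0.03, adjusted p = 0.000143 in edgeR's quasi-likelihood test with Benjamini-Hochberg adjustment). These 6 genes of the list, which include stress-induced genes, thus rose while 34 of the 39 members had estimates below 0. A difference between the lists was not tested.

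Over all 117 other pathway genes, 112 were tested, 9 rose and 4 fell, beside 2.47% higher and 1.98% lower among all tested genes. Of these, 96 tested genes stood outside the list of regulators, where 3 rose and 4 fell and the median log2 fold change was -0.02. None of the 17 mitochondrial synthetases passed edgeR's quasi-likelihood test, with 5 at an unadjusted p below 0.05 beside 18.5% of all tested genes, and 0 in DESeq2, limma-trend and limma-voom. Their median was -0.03 with 10 of 17 estimates below 0, and their summed level was 942, 941 and 946 CPM in NC and 935, 904 and 903 CPM in ORF-Flag, a difference of -3.03% with groups that did not overlap. The 5 other genes of the cytosolic synthetase complex gave 0 calls in edgeR and in those tools, 0 at an unadjusted p below 0.05, a median of -0.03 with 3 of 5 estimates below 0, and a summed level that differed by -0.66%. The 16 other folate and glycine enzymes gave 0 calls in edgeR and in those tools, 2 at an unadjusted p below 0.05, and a median of -0.08. Of their estimates 12 were below 0, and their summed level was 927, 882 and 884 CPM in NC and 869, 847 and 882 CPM in ORF-Flag, with NC replicate 1 high and the other NC libraries close to ORF-Flag replicate 3. The median was 0.00 over the transporters outside the module and 0.03 over the genes of amino acid sensing by mTORC1. Of 19 tested transporters outside the module, 2 rose (10.5%, beside 2.47% of all tested genes), and 3 reached an unadjusted p below 0.05 in edgeR's test, beside 18.5%. DESeq2 called 1 gene of this list, and limma-trend and limma-voom called 2 each. SLC38A1, the closest relative of SLC38A2 on the list, stood at 62.3, 67.8 and 67.9 CPM in NC and 73.0, 78.0 and 75.0 CPM in ORF-Flag, and its log2 fold change was 0.19 (adjusted p = 0.0176 in edgeR's quasi-likelihood test, Benjamini-Hochberg). Its groups did not overlap, but the adjusted p was 0.104 and 0.0757 without ORF-Flag replicates 2 and 3 (edgeR, Benjamini-Hochberg, range 0.00304 to 0.104 over the alternatives), with log2 fold changes between 0.15 and 0.21 when single libraries were left out. SLC7A6, a carrier of basic amino acids, stood at 42.2, 42.4 and 41.7 CPM in NC and 47.3, 47.6 and 47.0 CPM in ORF-Flag, groups that did not overlap. It rose by 0.17 on the log2 scale (adjusted p = 0.0454, edgeR, Benjamini-Hochberg), a call lost when each library in turn was left out (0.0704 to 0.152) and in DESeq2 (0.0883). The call was also lost with library sizes alone, and SLC7A6 passed in 7 of 16 alternatives. Its log2 fold change stayed between 0.15 and 0.17 over all 16. A gene on the opposite strand shares 53.3% of its 31-base stretches, so its level is uncertain.

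Among 26 other amino acid enzymes, GOT1 rose and ASL, GCLM and AHCY fell, which is 3.85% higher and 11.5% lower beside 2.47% and 1.98% of all tested genes. DESeq2 called 2 of these 4, and limma-trend and limma-voom called 4 genes of the list each. GOT1, the cytosolic aspartate aminotransferase, stood at 185, 187 and 183 CPM in NC and 197, 207 and 201 CPM in ORF-Flag, a log2 difference of 0.12. ASL of the urea cycle stood at 35.4, 32.6 and 31.5 CPM in NC and 28.0, 29.7 and 27.6 CPM in ORF-Flag, a log2 difference of -0.22. GCLM of glutathione synthesis stood at 66.9, 76.0 and 73.8 CPM in NC and 62.1, 66.6 and 63.9 CPM in ORF-Flag, a log2 difference of -0.18. For none of these 3 genes did the groups overlap, although NC replicate 1 and ORF-Flag replicate 2 nearly met for GCLM. AHCY, which hydrolyses S-adenosylhomocysteine and is named after its values were seen, had a log2 fold change of -0.12. Their adjusted p lay between 0.0346 and 0.0407 in edgeR's quasi-likelihood test with Benjamini-Hochberg adjustment. These calls were also lost in most fits of 5 libraries, while the log2 fold changes stayed between 0.10 and 0.14 for GOT1, -0.26 and -0.18 for ASL, -0.22 and -0.14 for GCLM, and -0.14 and -0.09 for AHCY. GOT1 and GCLM lost theirs without NC replicate 2 or any 1 ORF-Flag replicate, with adjusted p up to 0.198 and 0.203 (edgeR, Benjamini-Hochberg). ASL lost its call without NC replicates 1 and 2 and ORF-Flag replicates 1 and 3, each left out alone, up to 0.174, and AHCY without any library except NC replicate 3, up to 0.154 (edgeR, Benjamini-Hochberg). DESeq2 did not call ASL and GCLM (adjusted p = 0.0559 and 0.0521), and ASL shares 25.2% of its 31-base stretches with another annotated gene. Genes on the opposite strand overlap 651 exon bases of GOT1 and 252 of DEPTOR. Of 13 tested genes of amino acid sensing by mTORC1, DEPTOR, an inhibitory subunit of mTOR complexes, fell from 5.0, 3.92 and 4.21 CPM in NC to 2.53, 3.04 and 2.74 CPM in ORF-Flag. The groups did not overlap, and the log2 fold change was -0.66 (adjusted p = 0.0153 in edgeR's quasi-likelihood test, Benjamini-Hochberg). Without NC replicate 1, ORF-Flag replicate 1 or ORF-Flag replicate 3, the adjusted p was 0.0602, 0.0818 and 0.0743 (edgeR, Benjamini-Hochberg, range 0.00243 to 0.0818 over the alternatives), and the log2 fold change stayed between -0.73 and -0.57 with single libraries left out.

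**Figure D4:**
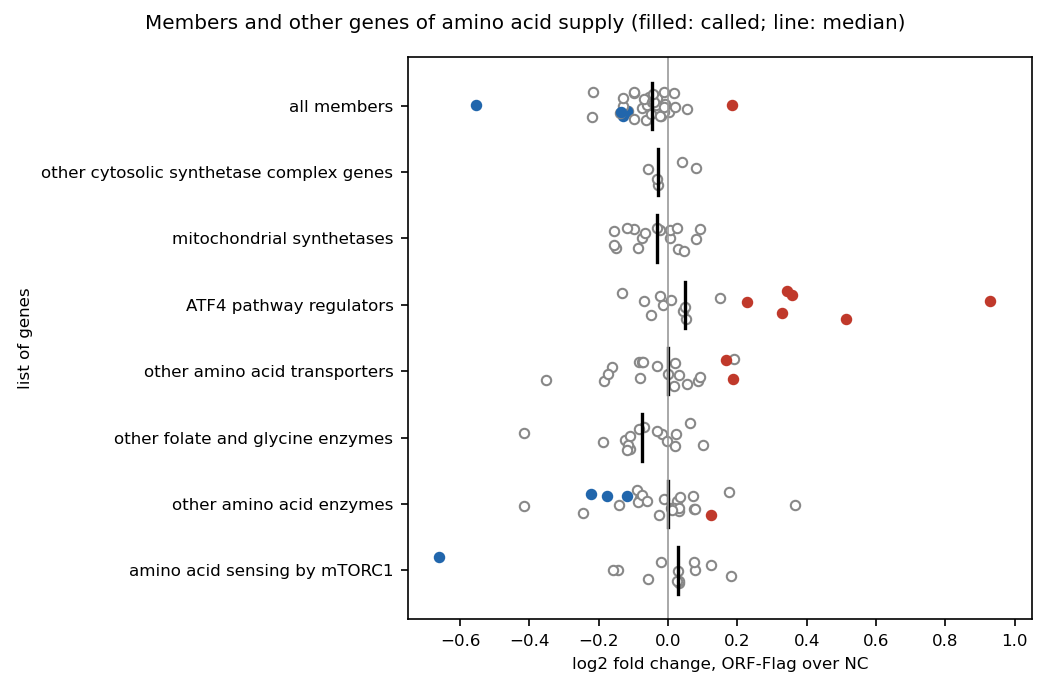
Log2 fold change of ORF-Flag over NC for each tested gene of the members and of the 7 other lists, with filled points for genes that passed the test and a line at each list's median. The members gather just below 0, whereas the list of ATF4 pathway regulators, which includes stress-induced genes, holds 6 filled points above 0.

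Several of these calls changed in a fit that took GC content and exon length into account together. In this alternative, chosen after seeing the data, the trend of counts with GC content and exon length was removed from every library, for 12345 genes including all 39 members. The trend differed between the groups by -0.0955 to 0.1086 on the log2 scale. VARS1 (62.6% GC), PYCR1 (61.8%) and QARS1 (55.2%) no longer passed, with log2 fold changes of -0.06, -0.09 and -0.09 and adjusted p of 0.231, 0.0759 and 0.0502 (edgeR, Benjamini-Hochberg). SLC38A2 (38.1% GC) was still higher at 0.15 (adjusted p = 0.000858, edgeR, Benjamini-Hochberg; range over its alternatives 2.16e-05 to 0.0252) and CBS still lower at -0.51 (adjusted p = 0.0108, edgeR, Benjamini-Hochberg). In this fit FARSB, IARS1, PHGDH and SHMT1 passed as lower, with log2 fold changes of -0.15, -0.10, -0.14 and -0.12. Thus 6 members were called, 2 of them shared with the reported 5, while 6.55% of all genes were called. The downward lean of the members was kept, with 31 of 39 estimates below 0 and a median of -0.06. Neither property was fitted by itself, and whether either produced the differences was not tested.

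**Figure D5:**
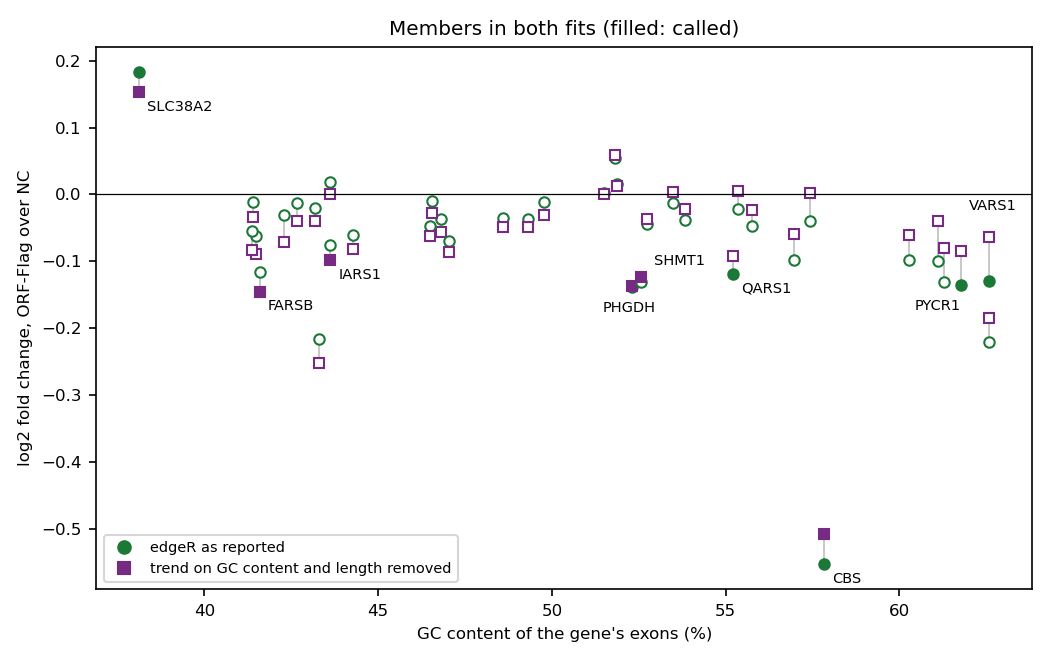
Log2 fold change of ORF-Flag over NC against GC content for each of the 39 members, in the reported fit and after the trend on GC content and exon length was removed. The GC-rich members VARS1 and PYCR1 move toward 0, while SLC38A2 stays above it.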

How the data were processed

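RNA from HepG2 cells was extracted with Trizol and prepared with the VAHTS universal V10 kit. The authors deposited raw read counts per gene, and the submitters' processing notes name cutadapt 1.11, HISAT2 2.1.0, featureCounts 1.6.0, edgeR and GRCh38. Strand use is not given in the sources used here, so reads of copies and of antisense pairs may be mixed. Groups came from the sample labels, and 20421 of 20422 identifiers were matched to a symbol. The comparison used edgeR 4.0.16 in R 4.3.3 (filterByExpr, TMM, quasi-likelihood test, Benjamini-Hochberg adjustment over 12386 genes, threshold 0.05), checked on simulated data. TMM factors were between 0.995 and 1.01 and the common biological coefficient of variation was 0.0389. Alternatives were DESeq2 1.42.0, limma 3.58.1 (trend, prior count 2, and voom), library sizes alone, RLE factors, no filter, at least 10 counts in every library, the replicate block, another call rule, single libraries left out and, added after seeing the data, removal of the GC content and exon length trend (GENCODE v29). All 39 members are accounted for. Values in each library are given for members called, the smallest p of each class, the extremes per length and ASNS, and of other lists for genes called (up to 3 per list) and ATF4, ATF3, DDIT3, TRIB3 and SESN2. Other members and genes singled out by name, with CTH, SLC1A5, EIF2AK4, AHCY and PECAM1, were chosen after their values were seen. Members and lists were chosen with earlier results of these data known. Promoters came from RefSeq. Figures used matplotlib 3.10.9.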

Additional observations from a re-analysis of the deposited data

How the results depend on the processing

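SLC38A2 was called in 15 of 16 alternatives, and the members' median stayed negative in all 16. Under the rule of a fold change above 1.2 with an unadjusted p below 0.05, 0 members were higher and 1 lower, and 5 other pathway genes were higher and 1 lower. DESeq2 called 2 other pathway genes lower and the fit without the GC content and length trend 9. With single libraries left out, all genes called ranged from 199 to 1058, members called lower from 1 to 9 (9 without NC replicate 3), the members' median from -0.0610 to -0.0446, and other pathway genes called lower from 0 to 7. The replicate block gave 731 calls over all genes and 7 members lower. Same-numbered libraries correlated at 0.067, 0.027 and 0.045 in their deviations from the group means, so the numbers were not taken to pair them, and ORF-Flag replicate 2 correlated best with NC replicate 3 (0.03). Calls higher were 55.5% of all calls, between 47.4% (without NC replicate 3) and 65.8% (without ORF-Flag replicate 3) with single libraries left out, and 49.8% without a filter. CHAC1 was not tested with at least 10 counts required in every library.

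Signs turned for some estimates that passed no test. Without the GC content and length trend, AARS1 was at 0.0032, GPT2 at 0.0052 and SLC3A2 at 0.0018. SARS1 was at -0.0030 with library sizes alone and at -0.0004 both without a filter and with the replicate block. With single libraries left out, the log2 fold change ranged from -0.0300 to 0.0052 for AARS1, -0.0533 to 0.0025 for EPRS1, -0.0446 to 0.0111 for KARS1, -0.0418 to 0.0288 for SARS1, -0.0021 to 0.0389 for TARS1, -0.0498 to 0.0058 for PSPH, -0.0491 to 0.0226 for MTHFD2, -0.0532 to 0.0078 for GPT2, -0.3730 to 0.0011 for CHAC1, -0.0797 to 0.0103 for SLC1A4, -0.0340 to 0.0132 for VLDLR and -0.0406 to 0.1259 for TRIB3. Other estimates kept their sign but moved in size with single libraries left out. Among them were SLC7A1 (-0.0779 to -0.0223), PSAT1 (-0.0490 to -0.0096), MARS1 (-0.0595 to -0.0073), RARS1 (-0.0771 to -0.0229) and ATF4 (0.0298 to 0.0769). The cause was not tested in either case.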
